A study of Mus musculus with 4 samples.

Results

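Open chromatin was examined at 46 genes that mark the non-epithelial cells of mouse skin, in stem cells of the hair follicle from mice labelled Irx5KO and WT. The genes were taken by name from lists of cell type markers, with no measured value in the rule, although earlier results of these data were known: 12 mark fibroblasts or the dermal papilla, 12 immune cells, 8 melanocytes, 8 endothelial cells, and 6 nerve, Schwann or muscle cells. All 46 were found among 21887 protein-coding genes of the RefSeq table of GRCm38, the assembly also called mm10. ATAC-seq, which reads out where a transposase can reach the DNA, was run on 2 samples per genotype. The deposited data are 1 peak list per genotype that pools both samples, so there is no spread between samples and no test between genotypes. The labels give neither the Irx5 allele nor the strain, sex or age of the mice. Cells were sorted for CD34, against Ly-6A/E and for another marker written CD45f, whose protein the labels do not state.

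Each of these cell types is recognised by a set of marker genes, some of which keratinocytes can also use. Dermal fibroblasts build the collagen matrix, and the dermal papilla beneath the follicle sends signals that start hair growth. Melanocytes make pigment for the hair shaft, immune cells such as Langerhans cells and T cells reside beside the follicle, and vessels, nerves and the arrector muscle attach to it. CD34 is also carried by endothelial cells, some fibroblasts and blood progenitors, and Ly-6A/E by many endothelial, immune and mesenchymal cells. In a pooled list from sorted cells, a few cells of another type and a weak opening in every cell cannot be told apart.

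On the 21 standard chromosomes there were 484992 Irx5KO peaks and 498061 WT peaks, with no read depth in the lists. A peak was counted for a gene when it lay over the gene or within 1000 bp beyond either end. An overlap of 1 bp or more with any peak of the other list made it shared, and the remaining peaks are called list-only. A list-only peak shows neither gain nor loss, since what enters a list depends on depth and threshold. Peaks were ranked by the authors' score within their own list. A rank is given here as the percentage of that list scored at least as high, so that a small value is a high rank. As a check of the sorted cells, 18 of 20 genes of the follicle epithelium, such as Krt5 and Krt14, had a peak at a gene end in both lists, against 75.2% of coding genes, and the other two, Runx1 and Trp63, in neither. The best peaks of these follicle genes ranked lower than those of coding genes, with medians of 33.4% against 20.8% in Irx5KO and 41.98% against 25.3% in WT.

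More than 50% of the marker genes carried gene-end peaks in both lists, a smaller share than among coding genes. A peak lay at a gene end, within 1000 bp of either annotated end, in both lists for 26 of the 46 genes, or 56.5%, against 75.2% of all coding genes. The peaks of the lists needed neither to overlap nor to lie at the same end. The Irx5KO list alone marked 5 genes, against 6.07% of coding genes, and the WT list alone 6, against 3.99%. The other 9 genes had no gene-end peak in either list, which was so for 14.7% of coding genes. Of 20 genes of other organs, such as Ins1 and Ins2 of the pancreatic islet, 5 had a gene-end peak in both lists and 10 in neither. By the shares marked in both lists and in neither, the marker genes thus lay between the follicle genes and the genes of other organs. In the WT list alone they lay above both, since it marked 2 of the 20 genes of other organs and 0 follicle genes. With 1 list per genotype no test of these orders was possible.

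**Figure D1:**
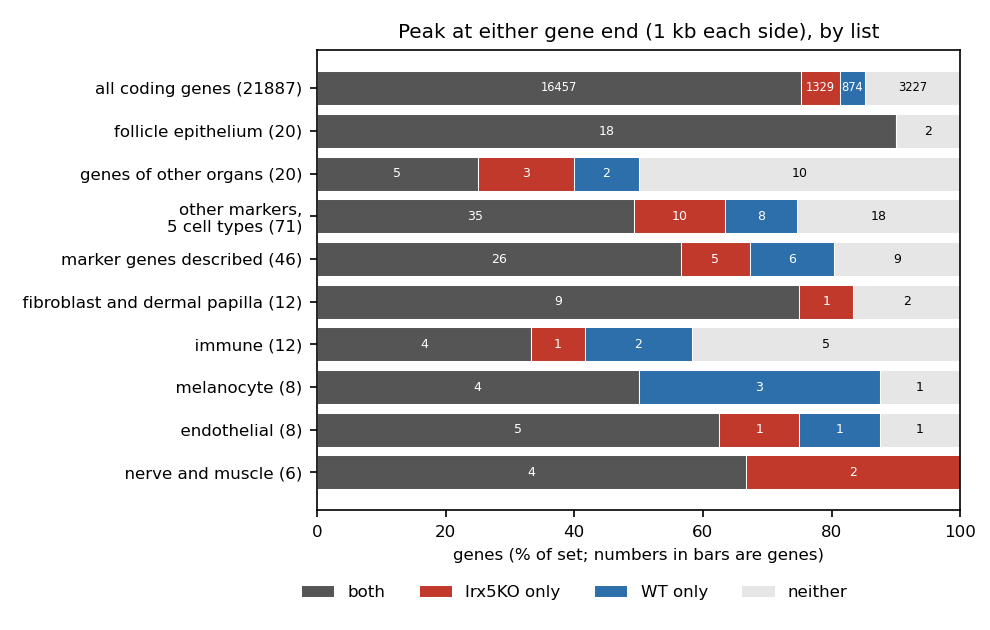
Share of genes (horizontal axis, percent of each set) with a peak within 1 kb of either gene end in both lists, in 1 list or in neither; the number of genes stands in each bar and each set's size in parentheses. The 46 marker genes have 26 genes marked in both lists and the follicle epithelium 18 of 20, while the 12 immune genes have 4.

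Counting every peak over a gene and 1000 bp beyond, 38 of the 46 genes had peaks in both lists, against 88.7% of coding genes. Those with peaks in the Irx5KO list alone were 3 (Fcer1g, Sox10 and Des), against 2.99%. Mlana and Cd74 made up the 2 with peaks in the WT list alone, against 2.01%. Both lists held 239 peaks over the 46 genes. Of the Irx5KO peaks 150 were shared, or 62.8% (95% Wilson interval 56.5 to 68.6, for counting error only), against 72.9% of the Irx5KO peaks over all coding genes. Of the WT peaks 157 were shared, or 65.7% (59.5 to 71.4), against 71.3%. That left 89 list-only peaks of Irx5KO and 82 of WT, where 27.1% and 28.7% of the peaks over coding genes were of these kinds. List-only peaks were narrow and low in rank. Their median rank was 88.4% in Irx5KO and 83.2% in WT, against 32.3% and 37.6% for shared peaks, and their median width was 240 bp and 250 bp, against 515 bp and 470 bp. None of them reached the upper 10% of its list, where 23 shared Irx5KO peaks and 25 shared WT peaks lay. The same ranks and widths are not given over all coding genes, so they are not shown to be particular to the marker genes.

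**Figure D2:**
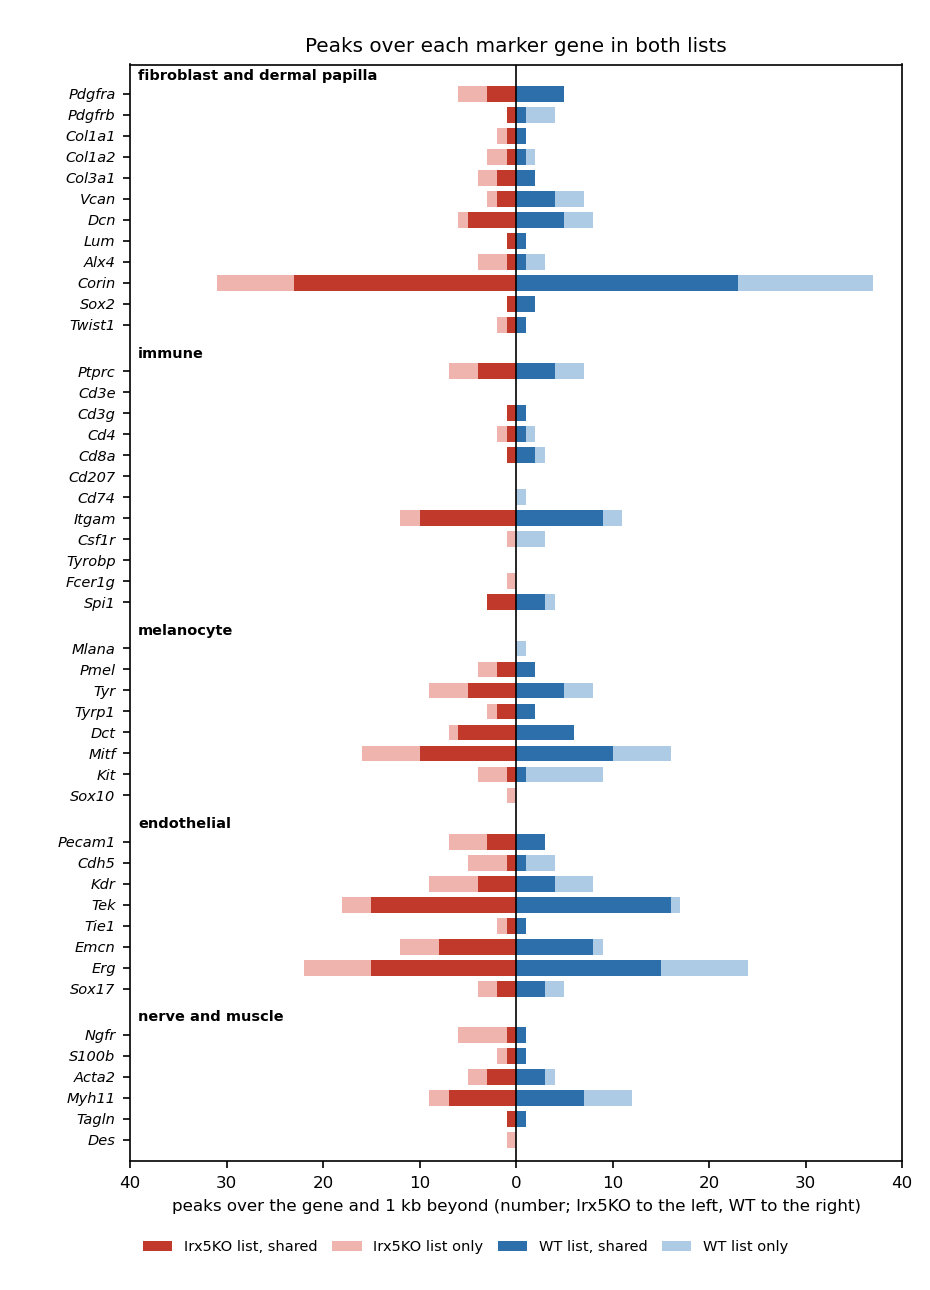
Number of peaks over each of the 46 marker genes and 1 kb beyond (horizontal axis; Irx5KO list to the left, WT list to the right), with shared peaks dark and peaks of that list only pale. Corin has the most, 31 and 37, and Cd3e, Cd207 and Tyrobp have none.

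The number of peaks followed the size of the gene. Spearman's rho between gene span and peak number over the 46 genes was 0.817 for the Irx5KO list and 0.835 for the WT list, as a description of genes that share their 2 lists. Over all coding genes it was 0.776 and 0.766. The best rank reached over a gene also has more chances in a long gene. The best peak over a gene lay in the upper 10% of the Irx5KO list for 9 of the 46 genes, against 30.4% of coding genes, and in the upper 10% of the WT list for 10, against 27.1%. The median rank of the best peak was 24.7% in Irx5KO and 30.1% in WT among marker genes with a peak, and 20.8% and 25.3% among coding genes. Of 38 genes with peaks in both lists, the best peaks overlapped in 32, or 84.2%, against 77.1% of such coding genes. The best peak lay at a gene end in 14 of 41 genes with a peak in Irx5KO, or 34.1%, against 52.9% of coding genes. In WT it did so in 16 of 40, or 40%, against 48.8%.

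**Figure D3:**
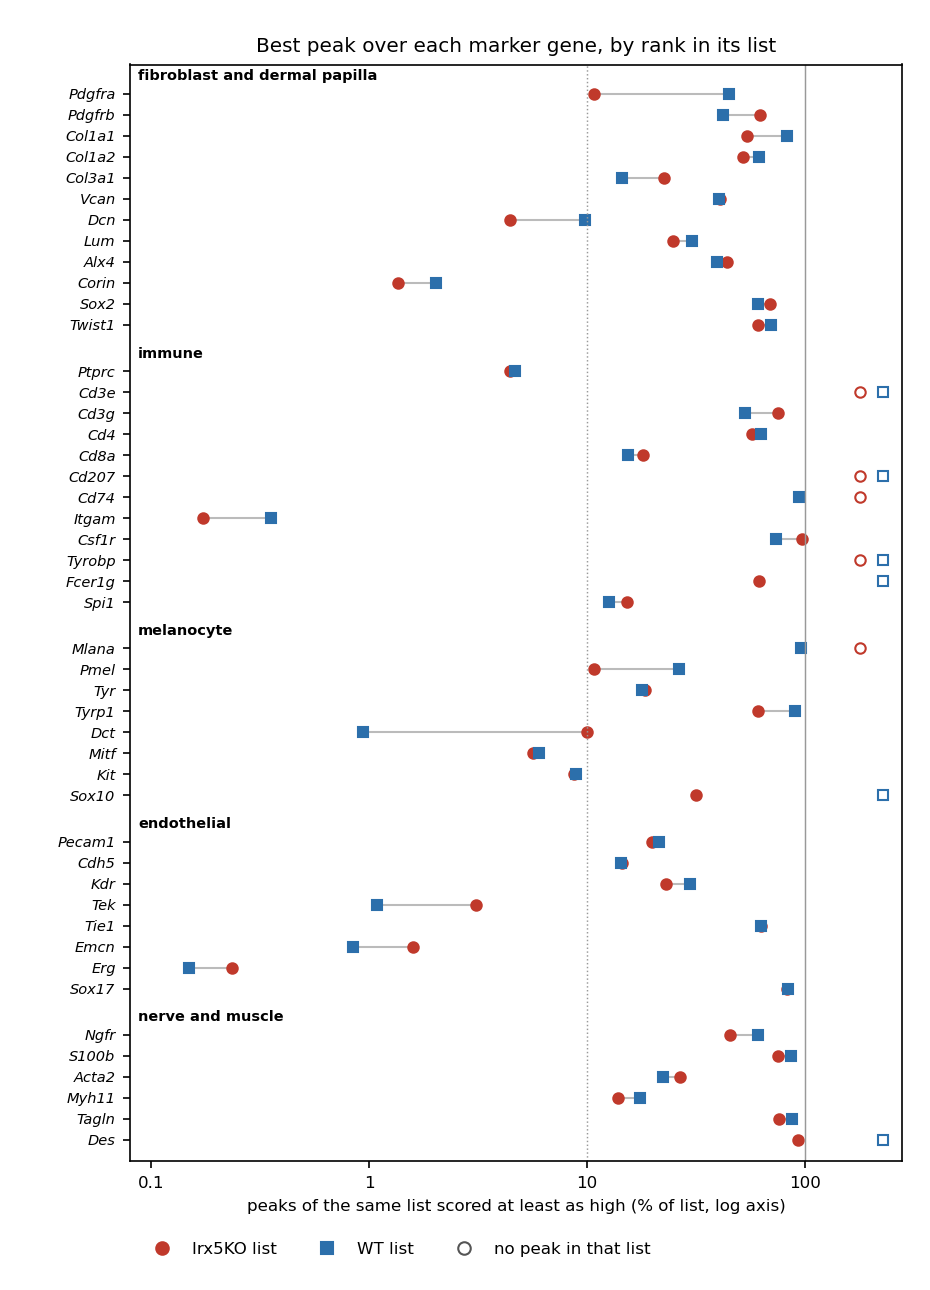
Rank of the best peak over each marker gene, as the percentage of its own list scored at least as high (horizontal log axis; smaller is higher in rank), for the Irx5KO list (circles) and the WT list (squares); open symbols on the right mark genes with no peak in that list, and the dotted line is at 10%. Itgam and Erg reach under 0.4% in both lists, whereas Sox17, Tagln and Csf1r stay above 70%.

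Among the fibroblast genes, the transmembrane protease gene Corin, a marker of the dermal papilla, stood out by its number of peaks. Corin spans 204.6 kb of chromosome 5 (72299948 to 72504540) and held 31 Irx5KO and 37 WT peaks, of which 23 in each list were shared. Its best peak, inside the gene, ranked at 1.35% in Irx5KO and 2.02% in WT. Peaks covered 8.48% and 8.83% of the region, so the lists were close to each other there. The 8 Irx5KO-only and 14 WT-only peaks of Corin were the most of any marker gene in either direction. Dcn, which encodes the collagen-binding proteoglycan decorin, had its best peak inside the gene as well (chromosome 10, 97490751 to 97491230 in Irx5KO), at 4.44% in Irx5KO and 9.80% in WT.

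Col3a1 (chromosome 1, 45311538 to 45349706), for a fibrillar collagen of the dermis, had 4 Irx5KO and 2 WT peaks, all inside the gene, with best ranks of 22.5% and 14.5% and no peak at either end. Col1a1, for the main chain of type I collagen, had 2 and 1 peaks with best ranks of 54.6% and 82.9%, the lowest among the fibroblast genes in WT and by the mean of both lists, while Sox2, Pdgfrb and Twist1 were lower in Irx5KO. Peaks covered 7.44% of the Col1a1 region in Irx5KO and 3.03% in WT. Pdgfra, which encodes the platelet-derived growth factor receptor that marks dermal fibroblasts, was the only fibroblast gene marked at a gene end in 1 list only. That Irx5KO peak was 240 bp wide (chromosome 5, 75150801 to 75151040) and ranked at 99.9%, next to the bottom of its list. The shared peak inside Pdgfra ranked far apart in the lists, at 10.7% in Irx5KO and 45.0% in WT. Its neighbour in function, Pdgfrb, had 1 Irx5KO and 4 WT peaks and none at a gene end.

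The genes for the transcription factors Sox2 and Twist1, named here after their values were seen, were short and had a start peak in both lists. A start peak is a peak with at least 1 bp in the 300 bases from 250 before to 50 after the RefSeq start, which need not cover the start base itself. Peaks covered 32.5% of the Sox2 region in Irx5KO and 15.9% in WT, and 34.6% and 29.1% of the Twist1 region. Their best peaks nevertheless ranked only at 69.6% and 61.0% for Sox2 and at 61.1% and 70.3% for Twist1. Sox2 marks the dermal papilla of some hair types, and Twist1 serves in mesenchymal cells. Col1a2 and Vcan, for a type I collagen chain and the papilla proteoglycan versican, had their best peaks at the gene end in both lists, at 51.9% and 61.9% for Col1a2 and at 40.7% and 40.3% for Vcan. Lum, for the proteoglycan lumican, had 1 shared gene-end peak at 24.7% and 30.5%. Alx4, for a homeodomain factor of mesenchyme, had gene-end peaks in both lists that did not overlap, and its best peak, inside the gene, ranked at 44.0% and 39.4%.

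Both lists marked 4 of the 12 immune genes at a gene end, the smallest share of the 5 groups among the 46 genes, and 5 had no gene-end peak. Cd3e, a chain of the T cell receptor complex, Cd207, the Langerhans cell lectin langerin, and Tyrobp, a signalling adaptor of myeloid cells, had no peak at all in either list, which was so for 6.34% of coding genes. Fcer1g, for another such adaptor, had 1 peak in Irx5KO and none in WT. Csf1r, which encodes the macrophage growth factor receptor, had 1 Irx5KO peak at 96.8% and 3 WT peaks with the best at 73.9%, and no peak of either list overlapped the other list. Csf1r counted as marked in both lists although its gene-end peaks lay at opposite ends, that in WT ranked at 93.7%. Cd74, for the invariant chain of antigen presentation, had a single WT peak of 280 bp at its lower end, ranked at 93.7%, and no Irx5KO peak. Cd4, a coreceptor of helper T cells, had 2 peaks in each list, and its gene-end peak in Irx5KO ranked at 83.4%.

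Among the 12 immune genes, 2 (Itgam and Ptprc) had a best peak in the upper 10% of both lists. That is 16.7%, against 30.4% of coding genes in Irx5KO and 27.1% in WT. In both genes that peak lay away from the RefSeq starts. The median rank of the best peak over immune genes with a peak was 37.6% in Irx5KO and 34.2% in WT. Over coding genes it was 20.8% and 25.3%. These low ranks were not particular to immune genes. The 12 fibroblast genes also had 2 in the upper 10% of both lists, with medians of 42.3% and 41.3%. The 6 nerve and muscle genes had 0, with medians of 60.3% and 61.0%. The medians were 10.7% and 17.8% for melanocyte genes and 17.2% and 17.9% for endothelial genes. Itgam encodes the integrin chain CD11b of myeloid cells. Just beyond the far end of Itgam (chromosome 7, 128118831 to 128119790 in Irx5KO) lay a shared peak ranked at 0.172% in Irx5KO and 0.356% in WT. Over the whole region of Itgam the Irx5KO list had 12 peaks, 10 of them shared, covering 11561 bp, and the WT list 11, 9 of them shared, covering 10841 bp. Yet no peak of either list lay over its start. Ptprc, which encodes the pan-leukocyte protein CD45, held 7 peaks in each list, 4 of them shared. Its best peak was deep inside the gene (chromosome 1, 138104131 to 138105080 in Irx5KO) and ranked at 4.42% and 4.67%. The gene-end peak of Ptprc, listed in WT only, had its summit at -1066 bp from a RefSeq start, where negative positions lie upstream, and ranked at 77.5%. Spi1, for the myeloid transcription factor PU.1, had its best peak at 15.4% and 12.6%, inside the gene. Cd8a, the coreceptor of cytotoxic T cells, had its best peak at a gene end, at 18.1% and 15.4%, and none over its start. Cd3g, for another chain of the T cell receptor complex, had 1 shared peak inside the gene at 75.2% and 53.0%.

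More of the 8 melanocyte genes had a gene-end peak in WT than in Irx5KO, a difference that could not be tested. A gene-end peak was listed in WT for 7 of 8, against 79.2% of coding genes, and in Irx5KO for 4 of 8, against 81.3%. The 3 genes marked in WT only were Mlana, Tyr and Kit. Mlana, for the melanosome protein MART-1, had a single WT peak of 220 bp at 96.3% and no Irx5KO peak. Kit (chromosome 5, 75574987 to 75656722) encodes the receptor for stem cell factor, on which melanoblasts depend. Its WT peak lay over the gene start (75574891 to 75575560), was 670 bp wide and ranked at 73.6%, and the nearest Irx5KO peak was 3350 bp away. Kit had 8 list-only peaks in WT and 3 in Irx5KO, and peaks covered 7.37% of its region in WT and 4.29% in Irx5KO. Its best peak, 2900 bp wide in Irx5KO and 2920 bp in WT, was shared, deep inside the gene, and ranked at 8.76% and 8.93%. Without that wide peak, the best over Kit ranked at 80.6% in Irx5KO and 47.1% in WT, and no remaining peak of Kit was shared.

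Tyr, Tyrp1 and Dct encode the enzymes of melanin synthesis, and MITF, the transcription factor of melanocytes, is known to act on them through the M-box, written here as TCATGTG. The bases upstream of these 3 RefSeq starts (GRCm38.p6) are shown because the match occurred in all 3, with the match in capitals, read 5′ to 3′ on the strand of the gene. Positions are chr7:87493513-87493762 on the minus strand for Tyr, chr4:80833963-80834212 on the plus strand for Tyrp1 and chr14:118052247-118052496 on the minus strand for Dct.
Tyr: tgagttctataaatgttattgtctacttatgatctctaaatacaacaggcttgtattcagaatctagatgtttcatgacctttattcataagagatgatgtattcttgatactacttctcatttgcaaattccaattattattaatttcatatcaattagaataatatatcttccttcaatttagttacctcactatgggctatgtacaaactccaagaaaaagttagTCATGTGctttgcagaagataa
Tyrp1: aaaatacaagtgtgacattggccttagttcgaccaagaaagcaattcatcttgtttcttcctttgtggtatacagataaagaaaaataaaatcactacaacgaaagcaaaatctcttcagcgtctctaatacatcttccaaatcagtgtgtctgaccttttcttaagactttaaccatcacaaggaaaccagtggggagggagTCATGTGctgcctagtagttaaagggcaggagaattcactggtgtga
Dct: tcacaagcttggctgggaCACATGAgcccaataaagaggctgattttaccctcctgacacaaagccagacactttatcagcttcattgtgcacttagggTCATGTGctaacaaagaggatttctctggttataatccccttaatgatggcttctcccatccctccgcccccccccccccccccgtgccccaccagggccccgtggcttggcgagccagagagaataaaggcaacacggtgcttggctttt
Dct carried the motif on both strands, the upstream match reading in reverse. Each TCATGTG contains an E-box, CANNTG. Among 28 marker genes with an entry in the promoter table, which holds 250 bases before and 50 after each start, these were the only 3 genes with the M-box match. It occurred in 3.56% of the 17492 coding genes with an entry, both strands searched.

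The 3 starts differed in their peaks. Over the start of Dct both lists had a shared peak that covered both matches, ranked at 70.2% in Irx5KO and 68.1% in WT. At Tyrp1 both lists had a low peak, at 92.2% and 89.9%. The Irx5KO peak covered the start and the match at positions -47 to -41 from it, and the WT peak began downstream of the start. At Tyr the match at -22 to -16 was under no peak. A WT-only peak (chromosome 7, 87493721 to 87494100) began 186 bp from it, was 380 bp wide and ranked at 37.5%, while the nearest Irx5KO peak was 3706 bp from the match. That peak was the highest in rank among the 14 gene-end peaks at genes marked in 1 list only. Tyr as a whole differed little, with 9 Irx5KO and 8 WT peaks, 5 of them shared in each list, and best ranks of 18.4% and 17.8% at places that did not overlap. Tyrp1 had the lowest-ranked best peaks of the melanocyte genes with peaks in both lists, at 61.1% and 89.9%.

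The best peak over Dct lay beyond its far end (chromosome 14, 118011341 to 118012160 in WT) and ranked at 0.938% in WT and 10.1% in Irx5KO. Mitf itself spans 214.4 kb and had 16 peaks in each list, 10 of them shared, with a best peak 4530 bp wide in Irx5KO and 4540 bp in WT at 5.63% and 6.03%. Sox10, for the neural crest factor upstream of Mitf, had 1 Irx5KO-only peak at 31.8%, inside the gene, and none in WT. Pmel, for the fibril protein of melanosomes, had its best peak at a gene end in both lists, at 10.7% in Irx5KO and 26.4% in WT.

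**Figure D4:**
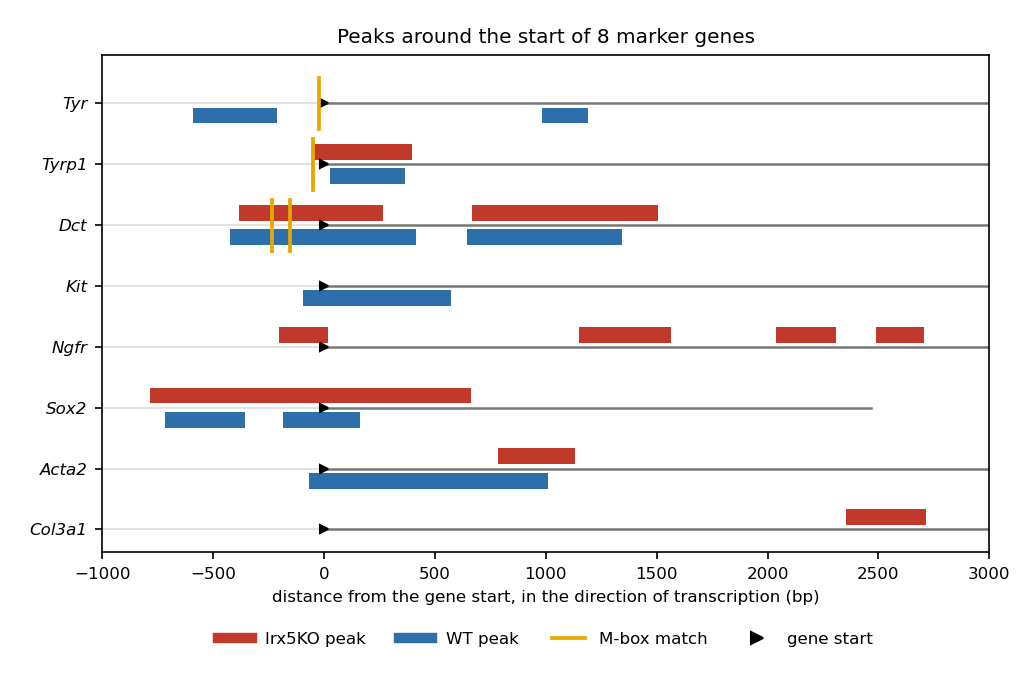
Peaks of the Irx5KO list (upper bars) and the WT list (lower bars) around the start of 8 marker genes, by distance from the RefSeq start in bp along the direction of transcription; vertical strokes mark M-box matches. Dct has peaks of both lists over the start and Tyrp1 peaks of both at or just after it, Kit and Acta2 have a WT peak there and Ngfr an Irx5KO peak, while Col3a1 has none.

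Of the 8 endothelial genes, 3 (Erg, Tek and Emcn) had a best peak in the upper 10% of both lists. That is 37.5%, against 30.4% of coding genes in Irx5KO and 27.1% in WT. The 8 genes were long, with a median span of 53.7 kb, against 17.2 kb for coding genes. Of 14 further endothelial markers, counted below, 2 in Irx5KO and 3 in WT had a best peak in the upper 10%. Where those markers had a peak, the median best rank was 39.3% and 47.7%, against 20.8% and 25.3% for coding genes. Erg, which encodes a transcription factor of endothelial identity, had a shared peak deep inside the gene (chromosome 16, 95508881 to 95516930 in Irx5KO) that ranked at 0.235% in Irx5KO and 0.148% in WT. That peak was 8050 bp wide in Irx5KO and 7990 bp in WT. Erg held 22 Irx5KO and 24 WT peaks, of which 7 and 9 were in that list only. Its single gene-end peak, in Irx5KO only, was 330 bp wide and ranked at 78.0%. Tek, for the angiopoietin receptor TIE2, had its best peak at 3.08% and 1.08%, with widths of 6550 bp and 6570 bp, and peaks covered 20.4% and 20.5% of its region. Emcn, for the sialomucin endomucin, had its best at 1.59% and 0.845%, 1120 bp and 1160 bp wide. Peaks of such width were far above the median of 410 bp in the Irx5KO list and 400 bp in the WT list, and what gave them was not tested. Among peaks of at most 2000 bp the best over Erg ranked at 11.1% in Irx5KO and 4.65% in WT, and the best over Tek at 4.49% and 3.38%. The best peaks of Erg, Tek and Emcn lay inside their genes, and the start base of Tek was covered in WT alone and those of Emcn and Erg in neither list. At Tek the start peaks of the lists were shared. The Irx5KO peak (94737991 to 94739220) ended short of the start base at 94739289 but covered the lower annotated gene end at 94739086.

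Cdh5 (chromosome 8, 104101613 to 104144504) encodes VE-cadherin, the adhesion molecule of endothelial junctions. Its 3 gene-end peaks were all in WT only and ranked at 58.2%, 87.4% and 83.2%. Inside the gene its best peak was shared and ranked alike, at 14.5% in Irx5KO and 14.3% in WT. Kdr, for the main receptor of vascular endothelial growth factor, had 5 list-only peaks in Irx5KO and 4 in WT, and its start carried a shared peak at 70.6% and 70.1%. Sox17, for a factor of arterial endothelium, had best peaks at 83.4% and 83.9% that did not overlap each other. Pecam1, for the adhesion molecule CD31, had 7 Irx5KO and 3 WT peaks, 3 of them shared in each list and none at a gene end, with best ranks of 19.9% and 21.5%. Tie1, for a receptor of the same family as TIE2, had a shared gene-end peak at 63.3% and 63.0%.

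The 6 nerve and muscle genes all had a gene-end peak in Irx5KO, against 81.3% of coding genes, and 4 of them in WT as well, against 79.2%. Ngfr (chromosome 11, 95568818 to 95587698) encodes the neurotrophin receptor p75 of Schwann cells. It held 6 Irx5KO peaks and 1 WT peak. Peaks covered 17.0% of the Ngfr region in Irx5KO and 5.03% in WT. The 1 shared place inside Ngfr had the best peak of both lists, at 45.3% in Irx5KO and 61.0% in WT, and the other 5 Irx5KO peaks had no WT partner. Over the start of Ngfr lay an Irx5KO-only peak of 220 bp, ranked at 86.1%, with the nearest WT peak 10870 bp away. Des, for the intermediate filament desmin of muscle, had a single Irx5KO peak of 330 bp at 93.1% and no WT peak.

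Acta2 encodes smooth muscle actin, and its best peak, inside the gene, ranked at 26.8% in Irx5KO and 22.4% in WT. Peaks covered 2240 bp of the Acta2 region in Irx5KO and 3170 bp in WT. A shared peak near the start of Acta2, 350 bp wide in Irx5KO and 1080 bp in WT, reached over the start in WT alone. Myh11, for smooth muscle myosin, had 9 Irx5KO and 12 WT peaks with best ranks of 13.9% and 17.6%, and 2 and 5 of these were in that list only. Tagln, for the actin-binding protein SM22, had 1 shared peak just beyond the higher end of the gene, ranked low at 76.6% and 87.4%. S100b, for a calcium-binding protein of Schwann cells, had a shared start peak at 78.0% and 86.1%.

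The gene-end peaks found in 1 list alone were mostly low in rank. At the 11 genes marked in 1 list only there were 14 such peaks, of which 1 lay in the upper 50% of its list, that at Tyr, and 5 in the lowest 10%. The ranks of such peaks at other coding genes are not given here. In the upper 50% of each list, set against each other, 8 of the 46 genes were marked at a gene end in both lists, against 40.1% of coding genes. The Irx5KO list alone marked 2, against 11.8%, the WT list alone marked 2, against 2.62%, and 34 had no mark, against 45.5%. All 5 genes marked in Irx5KO only and 5 of the 6 marked in WT only had no gene-end peak left. With windows of 3000 bp at the gene ends, Pdgfra, Ptprc, Tyr and Cdh5 were marked in both lists and the other 7 kept their class. At Tyr the Irx5KO peak that entered (87425831 to 87426050) lay near the far end, with its summit 67566 bp from the start. The WT-only peaks of Tyr lay at the start, where no Irx5KO peak entered. At that window the Irx5KO list alone marked 8 genes, against 3.59% of coding genes, the WT list alone 3, against 2.48%, and 1 had no mark, against 5.03%. In the upper 10% of each list, Itgam alone was marked at a gene end in both lists, against 6.19% of coding genes. Dct was marked there in WT alone, against 0.9%. Irx5KO alone marked 0 genes, against 4.58%, and 44 had no mark, against 88.3%.

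In covered bases the balance between the lists over the whole set was close to that of coding genes. Peaks covered more bases in Irx5KO at 25 genes and in WT at 17, or 54.3% and 37.0%, against 55% and 36.2% of all coding genes. List-only peaks were more numerous in Irx5KO at 22 genes, or 47.8%, against 32.4% of coding genes. They were more numerous in WT at 12, or 26.1%, against 28.3%, and equal in number at 12. The genes of the follicle epithelium differed from this, since peaks covered more bases in Irx5KO at 20 of 20. Of their WT peaks 80.1% (73.2 to 85.6) were shared, and of their 215 Irx5KO peaks 126 were shared, or 58.6%. That contrast between follicle genes and marker genes could not be tested with 1 list per genotype.

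Start peaks were more frequent where CpG content was high. CpG content is given as observed over expected CpG in the 300 bases of the promoter table, with the highest value where a gene has several starts. Genes at 0.6 or above, the usual limit for a CpG island, made up 50.9% of coding genes with an entry but 7 of 28 marker genes. At that level 93.2% of coding genes had a start peak in Irx5KO and 88.2% in WT. Below it the shares were 44.1% and 43.1%. Among the marker genes at or above the limit, 4 had a start peak in both lists (Sox2, Twist1, Mitf and Kdr), Ngfr in Irx5KO alone, Kit in WT alone and Erg in neither. Of the 21 below it, 6 had one in both lists, 3 in WT alone (Tyr, Corin and Acta2) and 12 in neither. At Corin, as at Acta2, the WT peak was shared, and its Irx5KO partner did not reach the window. The WT peak at Tyr lay wholly upstream of the start base. Over the 28 genes, 10 had a start peak in both lists, against 62.7% of coding genes, 1 in Irx5KO alone, against 6.37%, 4 in WT alone, against 3.33%, and 13 in neither, against 27.6%. Counting only peaks that cover the start base, a rule added after the data were seen, 8 genes had one in both lists, against 58.4%, and 2 in Irx5KO alone (Tyrp1 and Ngfr), against 7.23%. WT alone had 4 (Tek, Corin, Kit and Acta2), against 3.09%, and 14 had none, against 31.3%.

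**Figure D5:**
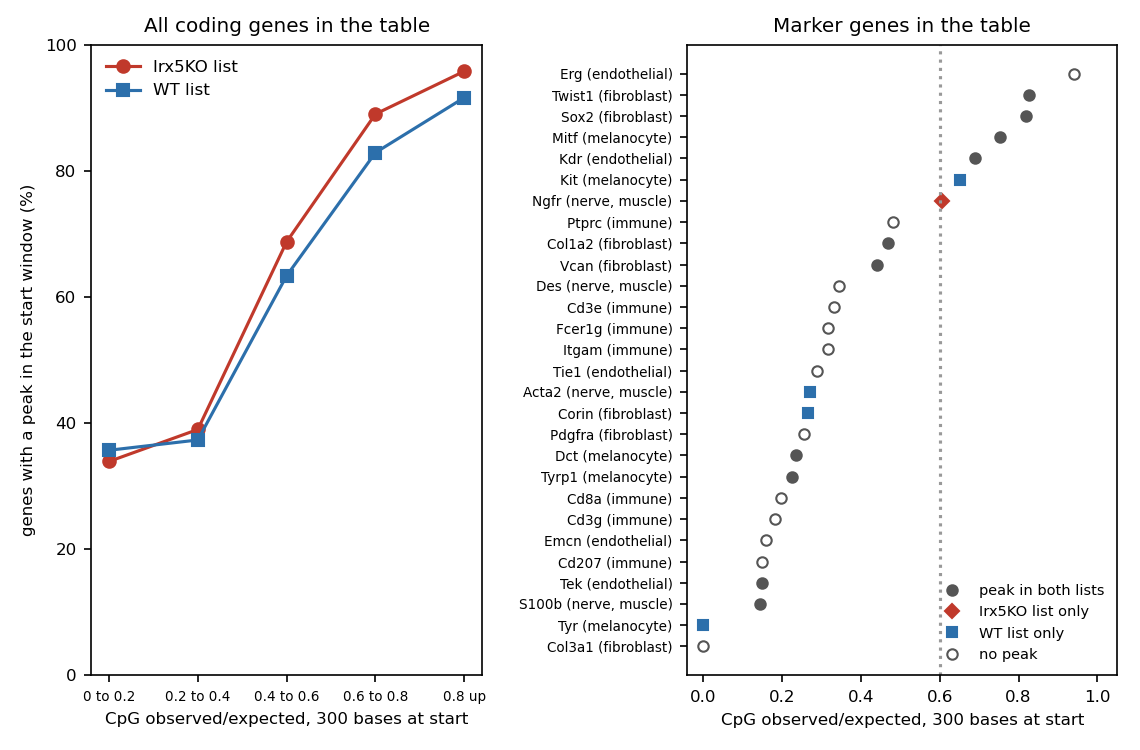
Left, share of coding genes with a peak in the 300-base start window (vertical axis, percent) by CpG observed over expected in 300 bases at the start, for the Irx5KO list (circles) and the WT list (squares). Right, the same CpG measure for the 28 marker genes with an entry, by the lists that hold a peak in that window; the dotted line is at 0.6, and 21 genes lie below it.

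Starts with and without CpG are shown for comparison, as the 250 bases upstream in GRCm38.p6 with each CG in capitals. Sox2 (chr3:34649745-34649994, plus strand) had 27 CG and was covered by peaks of both lists, over 250 and 184 of the bases. Kit (chr5:75574737-75574986, plus strand) had 17, with 96 bases under a WT peak and 0 under an Irx5KO peak. Ngfr (chr11:95587699-95587948, minus strand) had 16, with 202 bases under an Irx5KO peak and 0 under a WT peak. Col3a1 (chr1:45311288-45311537, plus strand) had 0 CG, with 0 bases under a peak of either list.
Sox2: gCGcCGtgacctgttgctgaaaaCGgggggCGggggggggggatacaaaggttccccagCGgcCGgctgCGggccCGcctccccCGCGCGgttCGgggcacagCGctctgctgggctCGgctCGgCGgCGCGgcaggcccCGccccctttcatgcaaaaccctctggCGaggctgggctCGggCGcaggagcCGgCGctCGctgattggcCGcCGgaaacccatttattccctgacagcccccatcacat
Kit: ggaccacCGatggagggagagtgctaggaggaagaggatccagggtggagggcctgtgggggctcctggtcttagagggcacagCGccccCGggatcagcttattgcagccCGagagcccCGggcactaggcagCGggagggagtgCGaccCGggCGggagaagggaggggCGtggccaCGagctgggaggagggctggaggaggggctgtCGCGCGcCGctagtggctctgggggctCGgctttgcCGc
Ngfr: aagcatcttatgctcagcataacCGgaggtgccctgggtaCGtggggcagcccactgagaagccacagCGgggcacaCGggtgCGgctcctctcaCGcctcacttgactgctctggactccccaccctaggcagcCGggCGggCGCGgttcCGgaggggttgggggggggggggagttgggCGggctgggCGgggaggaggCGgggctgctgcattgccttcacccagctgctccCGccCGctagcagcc
Col3a1: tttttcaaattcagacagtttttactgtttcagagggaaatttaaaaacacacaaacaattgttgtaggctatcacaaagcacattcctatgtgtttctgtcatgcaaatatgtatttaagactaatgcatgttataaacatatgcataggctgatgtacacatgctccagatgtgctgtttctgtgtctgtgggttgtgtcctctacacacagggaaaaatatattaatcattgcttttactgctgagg
The 7 immune genes with an entry all lay below the limit, and none had a start peak in either list. In 5 of these 7 the window held GAGGAA, a core that PU.1 can bind, which occurred in 30.5% of coding genes with an entry. Over all 28 marker genes it was present in 11. These included 2 of 7 fibroblast, 1 of 5 melanocyte, 2 of 5 endothelial and 1 of 4 nerve and muscle genes. The 5 melanocyte genes with an entry had a peak in the window in WT in 5 cases, against 66.0% of coding genes, and in Irx5KO in 3, against 69.1%. The start base itself lay under a WT peak in 3 of the 5 (Dct, Mitf and Kit) and under an Irx5KO peak in 3 (Dct, Mitf and Tyrp1). Tyr, Tyrp1 and Dct were among those with low CpG content, at 0, 0.225 and 0.236.

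Other fixed motifs were searched in the same windows on both strands. The E-box CANNTG was present in 26 of the 28 marker genes and in 72.1% of coding genes with an entry. TATAAA was found in 6, against 14.8%, CCAAT in 11, against 42.3%, and GGGCGG in 13, against 49.2%. The CArG box, to which serum response factor binds in muscle genes, was found in 0 of 28, against 1.76%. It was searched as CC, 6 bases of A or T, and GG, with no mismatch allowed. Of the muscle genes only Acta2 and Des were among the 28, since Myh11 and Tagln have no entry. A match is a description of the letters in these windows.

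A further 71 markers of the same cell types, not among the 46, were counted in the same way. Both lists marked 35 of them at a gene end, or 49.3%, against 75.2% of coding genes. The Irx5KO list alone marked 10, or 14.1%, against 6.07%, the WT list alone 8, or 11.3%, against 3.99%, and no list 18, or 25.4%, against 14.7%. By cell type a gene-end peak in both lists was found for 6 of 14 fibroblast, 7 of 18 immune, 3 of 9 melanocyte, 7 of 14 endothelial and 12 of 16 nerve and muscle genes. The order of cell types was not that of the 46 genes: the melanocyte share of 33.3% was the lowest here, next to 38.9% for immune genes, and the fibroblast share was 42.9%, against 75% among the 46. Of the melanocyte genes 2 were marked in Irx5KO only and 3 in WT only. Slc45a2 and Oca2, for transporters of the melanosome, were both marked in WT only, and Oca2 held 46 Irx5KO and 62 WT peaks, of which 6 and 23 were list-only. Peaks covered more bases in WT at 7 of these 9 melanocyte genes, but at 3 of the 8 melanocyte genes described above. Among the fibroblast genes Fbn1, for the microfibril protein fibrillin, was marked in both lists and Fbln1, for the matrix protein fibulin, in Irx5KO only. The T cell genes Cd3d and Cd247 had no peak and peaks in both lists, respectively. Flt1 and Flt4, for endothelial growth factor receptors, were marked in both.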

How the data were processed

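ATAC-seq peaks of 2 Irx5KO and 2 WT samples were used as deposited, as 1 pooled list per genotype per the labels. The submitters' processing notes name Bowtie2, cutadapt 2.9, Genrich 0.6, FastQC, ChIPseeker 1.24.0 and deepTools 3.4.2, and build mm10; settings and any shift for the Tn5 cut were not given in the sources used. The score is the authors' deposited value per peak and served only for ranks and thresholds inside 1 list, as the remaining value columns are 0 throughout. Unplaced contigs (1188 Irx5KO and 1733 WT peaks) were left out.

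Gene positions and the 21263 promoter sequences came from RefSeq (GRCm38.p6); 28 of the 46 genes have a promoter entry. The table of gene positions gives neither strand nor exons, so both gene ends were used and exonic or intronic position is not given. The members and lists were chosen with earlier results of these data known. Genes were named by rule: those marked at gene ends in 1 list only, the 3 best and the 1 worst ranked per cell type, the 5 with most list-only peaks in each direction, and the leading 2 of each other list; others were chosen after their values were seen. A few genes taken by this rule are not reported here. Shared peaks numbered 379082 and 365474, equal to bedtools 2.31.1. In simulated lists, gene-end classes planted at 198 genes drawn from the 21887 were all recovered. Peaks were planted near the higher gene end after other peaks near both ends were removed, so this checked the counting code only. Computations used Python 3.11.15, numpy 2.4.6, pandas 2.3.3, scipy 1.17.1 and matplotlib 3.10.9. Intervals are 95% Wilson intervals and cover counting error only. Alternatives changed the score threshold, list length, overlap rule, window, peak width and the gene end used.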

Additional observations from a re-analysis of the deposited data

How the results depend on the processing

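Equal list lengths, an overlap of 50% of the shorter peak for shared peaks, and a limit of 2000 bp on peak width kept each count within 1.5 times and each share within its interval. Thresholds on score leave fewer peaks. In the upper 50% of each list both lists marked 8 genes at a gene end, Irx5KO alone 2, WT alone 2 and no list 34. In the upper 10% the counts in that order were 1, 0, 1 and 44, where coding genes gave 6.19%, 4.58%, 0.9% and 88.3%. For sharing, the peaks kept were set against the whole other list, not against its upper part. On that rule the upper 50% left 9 Irx5KO-only and 9 WT-only peaks over the 46 genes, with 91.7% and 91.3% shared. The upper 10% left 0 and 0, with 100% and 100% shared. These shares are not given for coding genes. With windows of 3000 bp, Irx5KO alone marked 8 genes, WT alone 3, and 1 gene had no mark, where coding genes gave 3.59%, 2.48% and 5.03%. For the 28 genes with a promoter entry, either gene end gave 16 marked in both lists, 4 in Irx5KO alone and 5 in neither, and the start window alone 10, 1 and 13. Peaks that cover the start base, a rule added after seeing the data, gave 8, 2 and 14. No paired analysis was possible because each deposited list pools both replicates of a genotype; for the same reason leaving out a replicate was not run. Depth limits what absence from a list can show, since the lists give no read depth.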
